A study of Mus musculus with 6 samples.

Results

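Heat shock chaperones hold other proteins in a foldable state, refold damaged ones and pass them between machines. The genes described here are 10 chaperone genes outside the endoplasmic reticulum (ER), taken as the rows whose gene name was on a fixed list: Hspa1a, Hspa1b, Hspa8, Hsph1, Hsp90aa1, Hsp90ab1, Dnaja1, Dnajb1, Hspb1 and Hspe1. All 10 were found among 28601 genes, all 10 passed the filter on low counts, and they lie on chromosomes 1, 4, 5, 8, 9, 12 and 17. In this machinery HSP70 proteins (Hspa1a, Hspa1b, Hspa8) bind exposed stretches of a client, J-domain proteins (Dnaja1, Dnajb1) hand clients over and trigger ATP hydrolysis, and the nucleotide exchange factor Hsph1 lets the client go. HSP90 proteins (Hsp90aa1, Hsp90ab1) finish the folding of kinases and nuclear receptors, and the small heat shock protein Hspb1 holds unfolded proteins without using ATP. Heat shock factor 1 (HSF1) switches on the inducible members through heat shock elements in their promoters, while Hspa8 and Hsp90ab1 are abundant without stress. Hspe1 encodes the co-chaperonin of the mitochondrial matrix, so the name cytosolic does not hold for it.

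The livers of 6 male mice were sequenced after feeding with CDAHFD, a high-fat diet low in choline that makes the liver fatty, inflamed and fibrotic. The mice were 3 wild types (WT) and 3 with a serine in place of cysteine 52 of PRDX1 (Cys52Ser, here also mutants); PRDX1, or peroxiredoxin 1, is a peroxidase whose peroxidatic residue is that cysteine. The question was which liver genes respond to losing it under the diet. Feeding started at 8 weeks of age and lasted 8 weeks by the titles, but the treatment field gives 8, 9 and 10 weeks for WT replicates 1, 2 and 3 and 11, 12 and 13 weeks for the Cys52Ser replicates; if that field were right, genotype and feeding time cannot be told apart. No group on normal diet is part of this comparison, so both groups carry the diet.

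Library totals were 53318196 to 73900923 counts, with WT replicate 1 (65465225) and Cys52Ser replicate 1 (73900923) as the deepest. Prdx1 itself stood at 920 ± 57.2 CPM in WT and 780 ± 105 CPM in mutants (SD over 3 mice; edgeR adjusted p = 0.421; called in 5 of 20 alternatives, all on library totals alone or unrescaled FPKM), and a change of 1 residue cannot be checked from gene counts. Levels are given as CPM, the share of a library's counts scaled by its TMM size factor, unless FPKM (per length and depth) is named. These factors were 1.208, 1.141 and 1.045 for WT replicates 1, 2 and 3 and 0.8849, 0.9626 and 0.8145 for the Cys52Ser replicates. They did not overlap between genotypes, so every genotype difference in CPM depends on this scaling. The liver label was borne out by its markers: 13 of 14 listed hepatocyte genes were found, and their summed level was 56167 to 90853 CPM (WT) and 132099 to 163210 CPM in mutants. Summed markers of stellate cells and fibroblasts went the other way, at 1638 to 2863 CPM against 999 to 1121 CPM. In bulk tissue, fewer cells of a type and less RNA per cell cannot be told apart.

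The promoters of the members are shown for their heat shock elements. RefSeq windows (GRCm38.p6) existed for 7 of the 10 members, not for Hspa8, Hsp90aa1 and Hsp90ab1. Within the 250 bases before each annotated start, both strands were searched for the paired unit of a heat shock element, GAANNTTC or TTCNNGAA, and for a triple unit, the same pair followed after 2 further bases by another GAA or TTC in alternation, which contains the pair. The pair was found in 12.8% and the triple in 0.466% of 32851 windows of all genes. Capitals mark the matches, and each stretch reads 5′ to 3′ on the strand of its gene:
Hspa1b: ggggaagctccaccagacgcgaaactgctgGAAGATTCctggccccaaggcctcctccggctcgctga
Hspa1a: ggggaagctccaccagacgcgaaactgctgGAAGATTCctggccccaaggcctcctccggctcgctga
Dnaja1: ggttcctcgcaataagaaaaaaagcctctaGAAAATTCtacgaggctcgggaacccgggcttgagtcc
Hsph1: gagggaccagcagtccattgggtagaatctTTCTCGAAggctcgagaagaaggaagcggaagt
Hspb1: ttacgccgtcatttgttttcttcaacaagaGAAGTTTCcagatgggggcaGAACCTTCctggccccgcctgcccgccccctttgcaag
Hspe1: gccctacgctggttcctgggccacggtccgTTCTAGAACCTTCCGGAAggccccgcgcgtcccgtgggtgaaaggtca
In order, these stretches are chr17:34959305-34959372 and chr17:34972223-34972290 on the minus strand, chr4:40722314-40722381 on the plus strand, chr5:149636337-149636399 on the minus strand, and chr5:135887772-135887859 and chr1:55088029-55088106 on the plus strand. Hspe1 alone among the 7 held the triple unit, in 2 overlapping copies that begin 89 and 84 bases before the start. Its first bases overlap those of Hspd1, its chaperonin partner on the opposite strand, by 112 bases. Dnaja1 held 1 pair, 124 bases before the first of its 3 annotated starts and none before the other two, and Dnajb1 held none in either of its windows. Such a match describes letters only.

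The promoters of Hspa1a and Hspa1b differed at 3 of 250 bases. Both genes have 1 exon, and their coding sequences were 99.4% identical. Of all 150-base stretches, the read length, 38.1% of the Hspa1a transcript occurred unchanged in the Hspa1b transcript. How much of the signal belongs to each copy is therefore uncertain, and their sum is given beside them. An opposite-strand gene missing from the deposited genes, Gm20481, overlaps Hspa1a by 2225 bases, and its part in the Hspa1a counts was not tested.

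On the length-corrected FPKM scale the constitutive genes led. Hspa8 averaged 328 FPKM over the 6 libraries (233 to 449) and Hsp90ab1 241 FPKM (169.8 to 311), with Hspa8 higher in 6 of 6 libraries although the ranges overlapped. Hsp90aa1, the inducible HSP90, followed at 50.3 FPKM, below Hsp90ab1 in every library and with no overlap. Hspe1 came next at 46.5 FPKM and exchanged places with Hsp90aa1 in 3 of 6 libraries. Hspb1 and Dnaja1 came next, with means over all libraries of 29.97 and 29.9 FPKM that joined unlike genotypes. Hspb1 averaged 35.9 FPKM in WT and 24.1 FPKM in mutants, and Dnaja1 25.7 and 34.0 FPKM, so Hspb1 was the higher gene in 3 of 3 WT libraries and in 1 of 3 mutant libraries. The lowest were Hspa1b at 17.8, Dnajb1 at 11.4, Hsph1 at 8.51 and Hspa1a at 7.67 FPKM, and Hsph1 exceeded Hspa1a in 4 of 6 libraries. The 10 genes together held 0.235% to 0.434% of all counts, and Hspa8 alone made up 47.97% to 50.4% of that share.

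**Figure D1:**
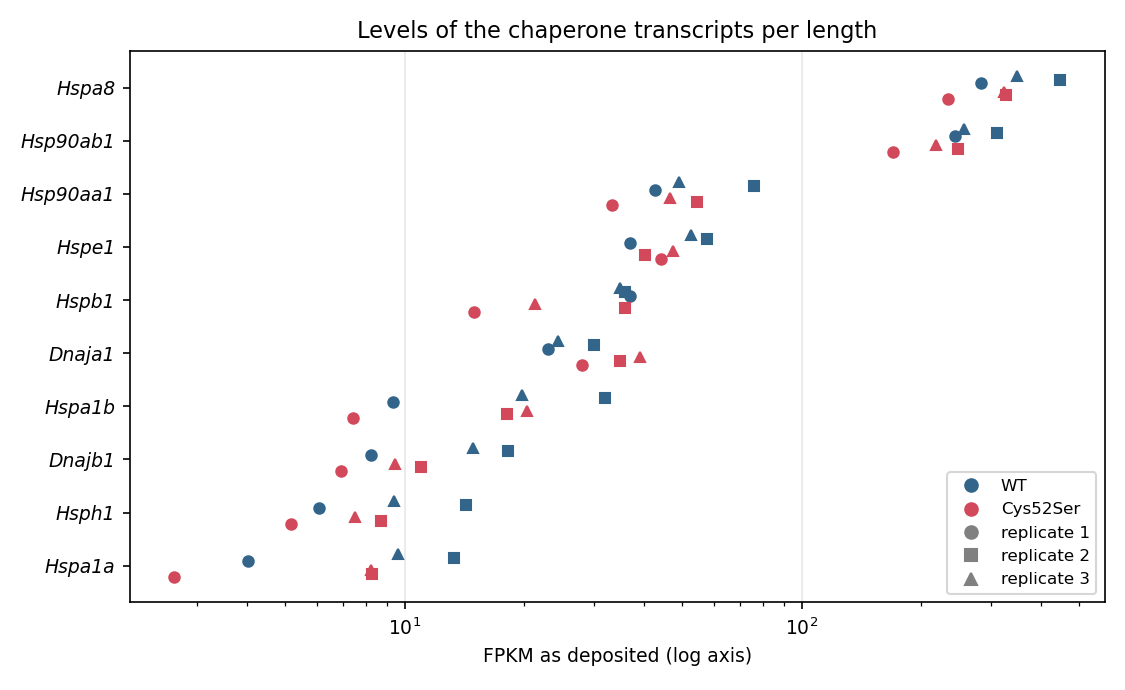
Deposited FPKM of the 10 genes (log axis), 1 point per library, blue for WT and red for Cys52Ser, with the replicate given by the symbol. Hspa8 and Hsp90ab1 lie at 169.8 FPKM or above in every library, and Hspa1a at 13.3 FPKM or below.

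No member was called between genotypes at an adjusted p under 0.05 (edgeR quasi-likelihood test, Benjamini-Hochberg over 18648 genes), where 4.98% of all tested genes were called, 2.52% higher and 2.46% lower in mutants. At an unadjusted p under 0.05 there was 1 member, Dnaja1, against 22.4% of all tested genes. Across the members 4 log2 fold changes were positive and 6 negative, with a median of -0.04 against -0.0032 over all tested genes; on library totals alone both medians moved down together, to -0.39 and -0.35. The members' median turned positive without WT replicate 2 (0.16) or Cys52Ser replicate 1 (0.18), and was -0.28 without WT replicate 1. DESeq2 called 1 member, Dnaja1 (background 14.8%), limma on log2(FPKM + 0.5) called 0 (23.9%) and edgeR on library totals alone 0 (16.2%). In 9 of the 10 the genotypes overlapped, and the exception was again Dnaja1; the groups did not overlap in 29.7% of all tested genes.

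**Figure D2:**
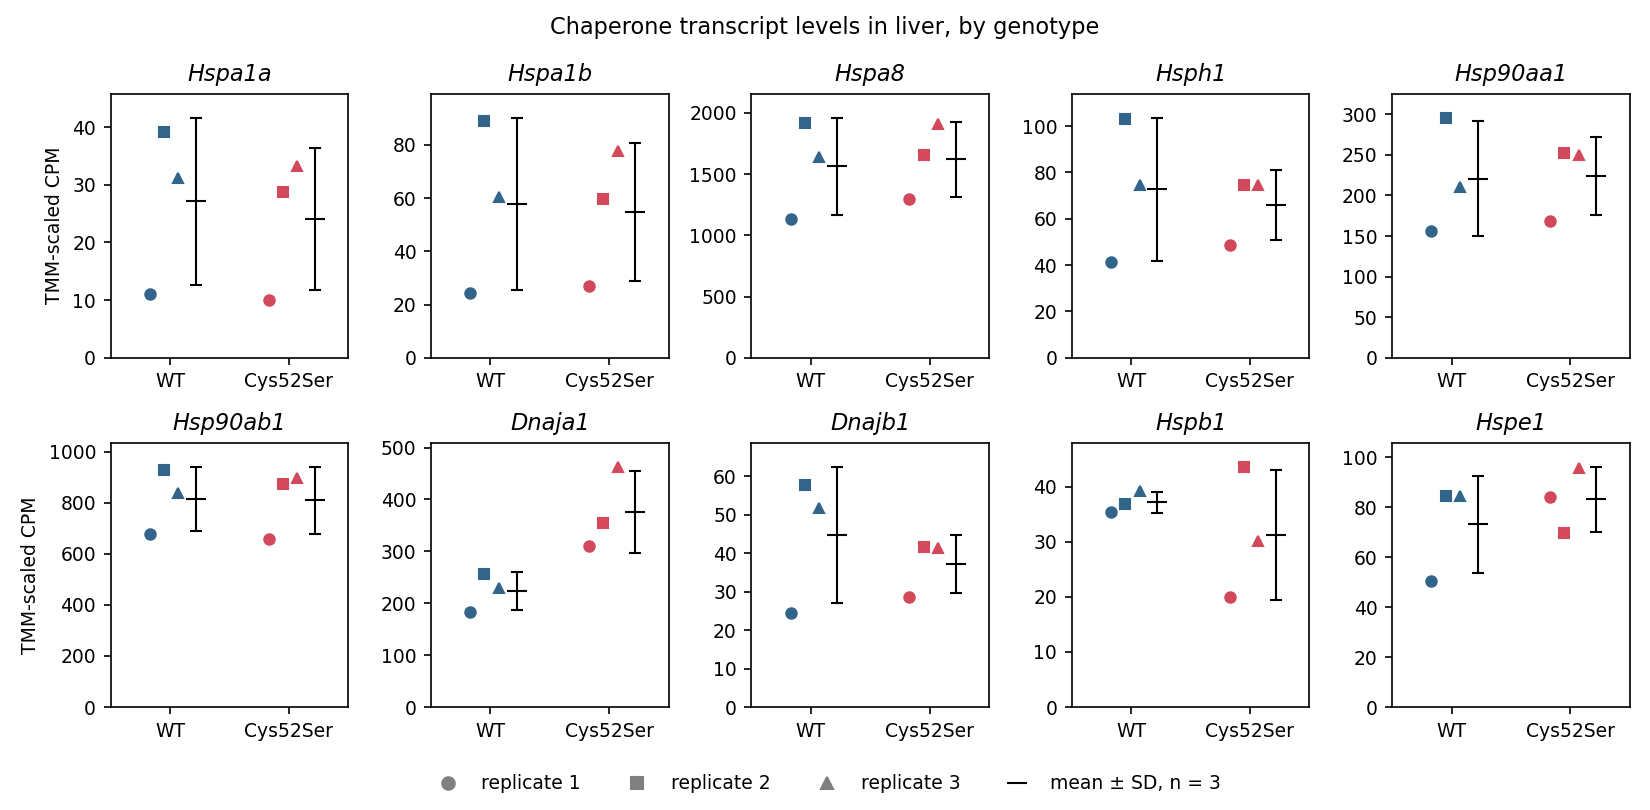
TMM-scaled CPM of each gene by genotype, 1 point per mouse, with mean and SD (n = 3) beside it. Only Dnaja1 has all Cys52Ser mice (311 to 463 CPM) above all WT mice (184 to 257 CPM).

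The inducible HSP70 genes differed more within a genotype than between genotypes. Hspa1b (ENSMUSG00000090877, chromosome 17, 34956436 to 34959238) was measured at 24.3, 89.0 and 60.2 CPM in WT replicates 1, 2 and 3 and at 26.8, 59.8 and 77.7 CPM in the Cys52Ser replicates. Replicate 1 was lowest in both genotypes, well below the other mice. The log2 fold change was -0.08 and its 95% confidence interval -1.42 to 1.27 (edgeR adjusted p = 0.956). Hspa1a (ENSMUSG00000091971, chromosome 17, 34969190 to 34972156) showed the same order, at 11.1, 39.2 and 31.2 CPM in WT and 10.1, 28.8 and 33.3 CPM in mutants (log2 fold change -0.17, interval -1.60 to 1.25, edgeR adjusted p = 0.904). Summed, the copies gave 85.0 ± 46.8 CPM in WT and 78.8 ± 38.0 CPM in mutants (SD over 3 mice; log2 fold change -0.11, edgeR adjusted p = 0.941). The fold changes allowed by these intervals ran from 0.373 to 2.40 for Hspa1b and from 0.330 to 2.38 for Hspa1a.

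Hspa8 (ENSMUSG00000015656, chromosome 9, 40800984 to 40810087), the constitutive HSP70, was measured at 1131, 1918 and 1638 CPM in WT and 1296, 1659 and 1907 CPM in mutants. The groups overlapped throughout. Its log2 fold change was 0.05, with an interval from -0.51 to 0.62, which runs from 0.702-fold to 1.53-fold (edgeR adjusted p = 0.931). Hsph1 (chromosome 5, 149614287 to 149636376), the exchange factor, stood at 41.1, 103 and 74.4 CPM in WT and 48.6, 74.7 and 74.5 CPM in mutants, with replicate 1 lowest again in each genotype (log2 fold change -0.14, interval -0.95 to 0.66, edgeR adjusted p = 0.853).

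The J-domain gene Dnaja1 was the only member whose genotypes did not overlap. Dnaja1 (ENSMUSG00000028410, chromosome 4, 40722150 to 40734964), a class A partner of HSP70, was measured at 184, 257 and 229 CPM in WT and 311, 354 and 463 CPM in mutants. The GENCODE M21 annotation ends this gene at 40737149 instead. An opposite-strand gene missing from the deposited genes, Gm6297, overlaps it by 249 bases, and its part in the Dnaja1 counts was not tested. Every Cys52Ser mouse lay above every WT mouse, as in 14.4% of all tested genes. The means were 223 ± 36.7 CPM (WT) and 376 ± 78.5 CPM (mutants; SD of 3 mice). The log2 fold change was 0.75, with an interval from 0.29 to 1.21, and did not pass the threshold after adjustment (edgeR quasi-likelihood test, adjusted p = 0.0747). DESeq2 called it (adjusted p = 0.00158), and over all 20 alternatives the adjusted p ran from 0.00158 to 0.203. The size depended on the scaling: with library totals alone the log2 fold change was 0.40, where the median of all tested genes moved to -0.35, and in deposited FPKM the groups overlapped, at 22.9, 29.9 and 24.3 (WT) and 27.9, 34.8 and 39.2 (mutants). Dnajb1 (chromosome 8, 83608193 to 83612653), a class B partner and a strongly HSF1-dependent gene, was measured at 24.5, 57.8 and 51.8 CPM in WT and 28.5, 41.5 and 41.5 CPM in mutants. These overlapped, with a log2 fold change of -0.27 and an interval from -1.04 to 0.50 (edgeR adjusted p = 0.696).

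Ratios of 2 genes within a library do not depend on its scaling, though they show unequal change only, not which gene moved. The count of Dnaja1 relative to Hspa8 was 0.163, 0.134 and 0.140 for WT and 0.240, 0.213 and 0.243 for mutants, so the groups did not overlap and the ratio was 1.60-fold higher. Relative to Dnajb1 it was 7.49, 4.44 and 4.42 for WT and 10.9, 8.52 and 11.2 for mutants, 1.92-fold higher and again without overlap. For each, a two-sided exact permutation test gave p = 0.1, which is the lowest value possible with 3 against 3 mice, and 0.4 after Benjamini-Hochberg adjustment over 8 ratios. The ratios were chosen after the levels were seen. In the other 6 ratios the groups overlapped, among them Dnajb1 to Hspa8 (0.0278 ± 0.00536 in WT, 0.0229 ± 0.00182 in Cys52Ser; SD, n = 3 each), Hsph1 to Hspa8 (0.0451 ± 0.00863 and 0.0405 ± 0.00397) and Hsp90aa1 to Hsp90ab1 (0.266 ± 0.0469 and 0.275 ± 0.0164).

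**Figure D3:**
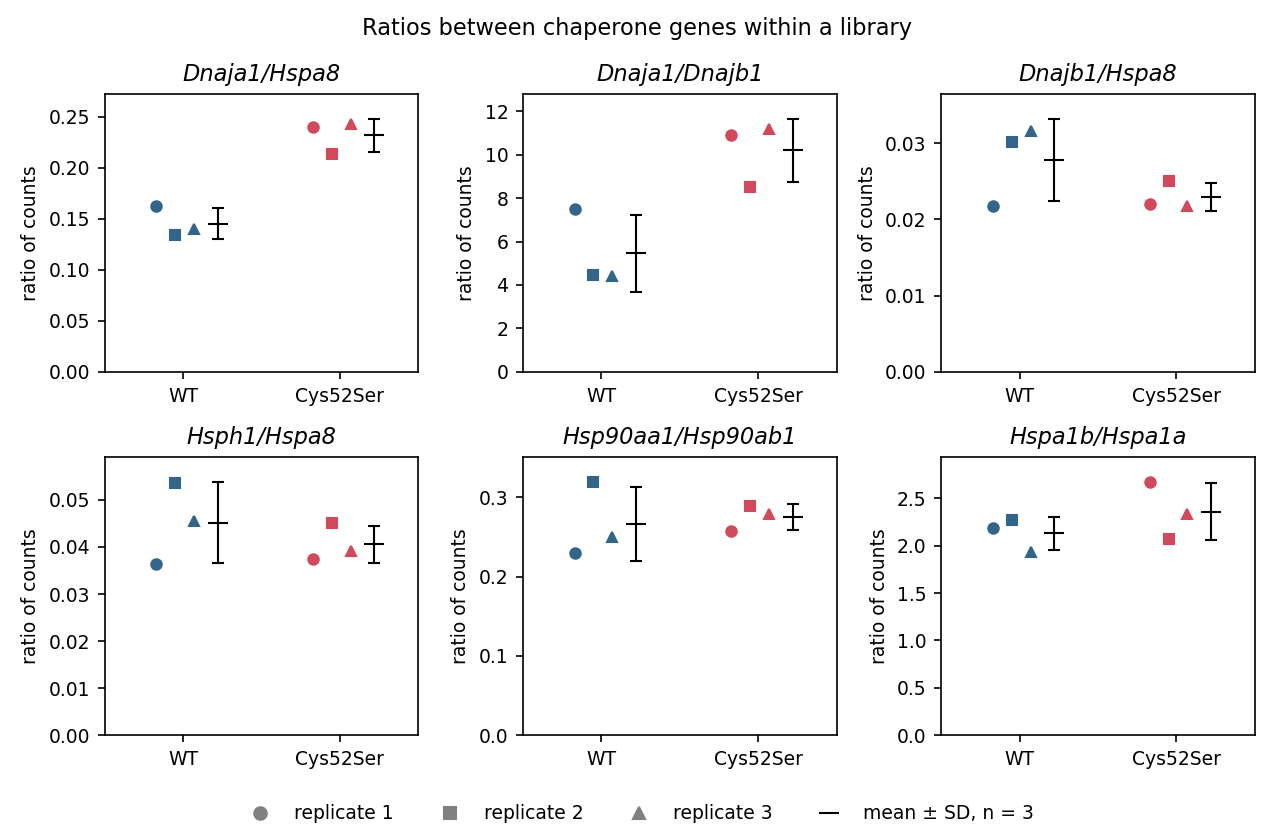
Ratio of the counts of 2 genes in each library, by genotype, with mean and SD (n = 3) beside the points. Dnaja1 relative to Hspa8 is 0.163 or lower in every WT mouse and 0.213 or higher in every Cys52Ser mouse, and the other 4 ratios drawn overlap; 2 of the 8 ratios, Hspe1 to Hspd1 and Hspa1b to Hspa8, are not drawn.

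Of the HSP90 genes, Hsp90ab1 had the narrowest interval among the members. Hsp90ab1 (ENSMUSG00000023944, chromosome 17, 45567775 to 45573271) was measured at 678, 927 and 839 CPM in WT and 658, 874 and 895 CPM in mutants. The log2 fold change was -0.01, with an interval from -0.45 to 0.43, or 0.733-fold to 1.35-fold (edgeR adjusted p = 0.985). Hsp90aa1 (chromosome 12, 110690605 to 110702728) stood at 156, 296 and 209.8 CPM in WT and 169, 253 and 250.03 CPM in mutants (log2 fold change 0.02, interval -0.60 to 0.64, edgeR adjusted p = 0.973). In both genes the genotypes overlapped.

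Hspb1 and Hspe1 followed other orders. Hspb1 (chromosome 5, 135887919 to 135889563) was even in WT, at 35.4, 36.8 and 39.1 CPM, and uneven in Cys52Ser, at 19.9, 43.6 and 30.1 CPM (log2 fold change -0.25, interval -0.86 to 0.36, edgeR adjusted p = 0.636). Its highest library in CPM was Cys52Ser replicate 2, while in FPKM WT replicates 1 and 2 (36.91 and 35.96) lay just above that library (35.89). Cys52Ser replicate 2 also stood apart in smooth muscle genes, where the summed level of 10 of 10 listed markers was 561 CPM. The sum was 147 and 139 CPM in the other Cys52Ser mice and 159.6 to 195 CPM in WT. The part of these markers in the Hspb1 value was not tested. The same library held 217 CPM of exocrine pancreas markers (7 of 9 listed found, 5 of them at 0 in at least 1 library), against 11.6 to 42.0 CPM in the other 5 libraries, whose part was not tested either. The log2 fold change of Hspb1 was -0.57 without Cys52Ser replicate 2 and -0.01 without Cys52Ser replicate 1, its lowest library (edgeR adjusted p = 0.138 and 0.983). Hspe1 (chromosome 1, 55088132 to 55091307) was measured at 50.6, 84.5 and 84.5 CPM in WT and 84.2, 69.8 and 95.8 CPM in mutants, with only WT replicate 1 standing lower (log2 fold change 0.19, interval -0.33 to 0.70, edgeR adjusted p = 0.683). Processed pseudogene copies of Hspe1 are annotated, so part of its signal may be shared with them.

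**Figure D4:**
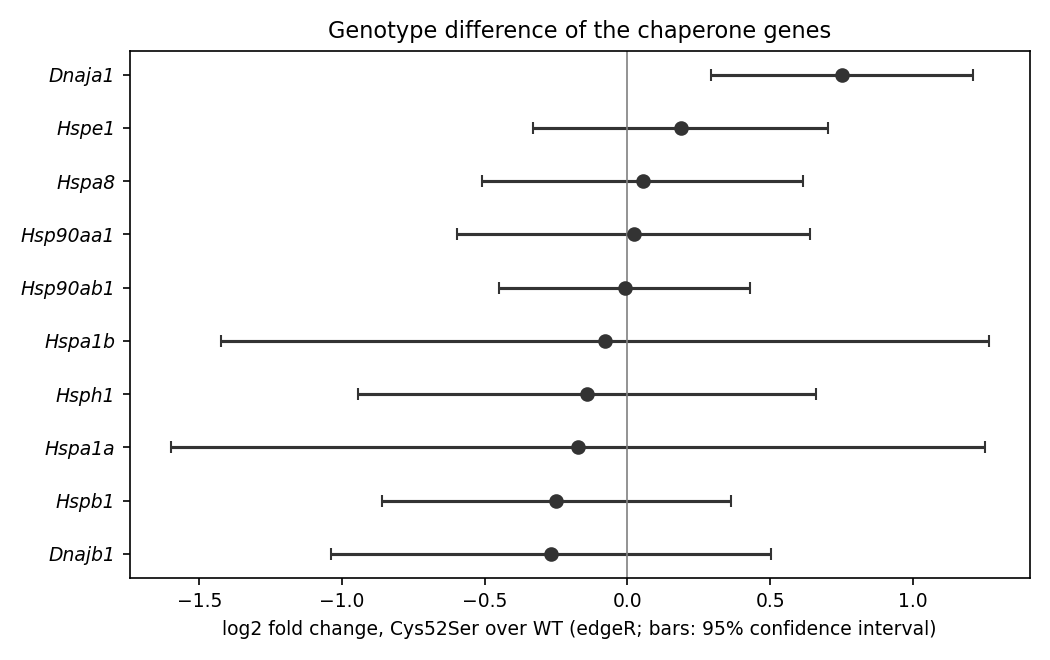
Log2 fold change of each gene, Cys52Ser over WT, from edgeR with its 95% confidence interval. The interval of Dnaja1 (0.29 to 1.21) lies above 0, without adjustment for the number of genes tested; the other 9 include 0.

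Most of the members shared part of their order across mice. Replicate 1 of one genotype or the other was the lowest library for all 10 genes, WT replicate 1 for 7 and Cys52Ser replicate 1 for 3. Over all tested genes WT replicate 1 was the lowest library in 17.6% and Cys52Ser replicate 1 in 13%. For 7 of the 10 (Hspa1a, Hspa1b, Hspa8, Hsph1, Hsp90aa1, Hsp90ab1 and Dnajb1) the replicate 1 libraries were the 2 lowest of the 6, a pattern found in 3.94% of all tested genes. On the deposited FPKM scale it held for 6, without Hsp90ab1. The pattern was noticed in these values and has no test. It was also found in 5 of 15 TRiC and prefoldin genes, 4 of 19 immediate early genes, 6 of 24 heat shock factors and other HSF1 targets and 4 of 20 HSP90 co-chaperones. Of these co-chaperones 3 (Chordc1, Cacybp and Stip1) are also on the list of HSF1 targets. Other lists held it rarely: 1 of 24 other HSP70 system genes, 1 of 13 mitochondrial chaperones and proteases and 1 of 18 temperature and clock genes. It was found in 0 of 6 other small heat shock proteins and 0 of 16 ER chaperones. The highest library exceeded the lowest 3.90-fold for Hspa1a, 3.67-fold for Hspa1b, 2.52-fold for Dnaja1, 2.50-fold for Hsph1, 2.36-fold for Dnajb1 and 2.19-fold for Hspb1. Hsp90aa1 came next, just above Hspe1 (1.89-fold), followed by Hspa8 (1.70-fold) and Hsp90ab1 (1.41-fold). The SD of log2 levels within a genotype was 0.96 for Hspa1a and 0.88 for Hspa1b, above that of 98.6% and 98.4% of 9337 genes with a mean of at least 10 CPM, and 0.24 for Hsp90ab1, above 73.4%.

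Cirbp, the cold-inducible RNA-binding protein gene, whose transcript is known to fall as chaperone transcripts rise with body temperature, had the opposite order: its 2 highest libraries were those 2, at 23.9 CPM in WT replicate 1 against 10.2 and 12.6 CPM, and at 17.0 CPM in Cys52Ser replicate 1 against 12.1 CPM or less. That order occurred in 4.56% of all tested genes. Rbm3, a related cold-inducible gene, did not share it, at 81.3, 95.3 and 76.2 CPM in WT and 81.6, 106 and 85.2 CPM in mutants. Both replicate 1 libraries were also the deepest, although Cys52Ser replicate 3 (64165034 counts) came close to WT replicate 1 (65465225 counts). The part of depth, body temperature or time of collection in this order was not tested.

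**Figure D5:**
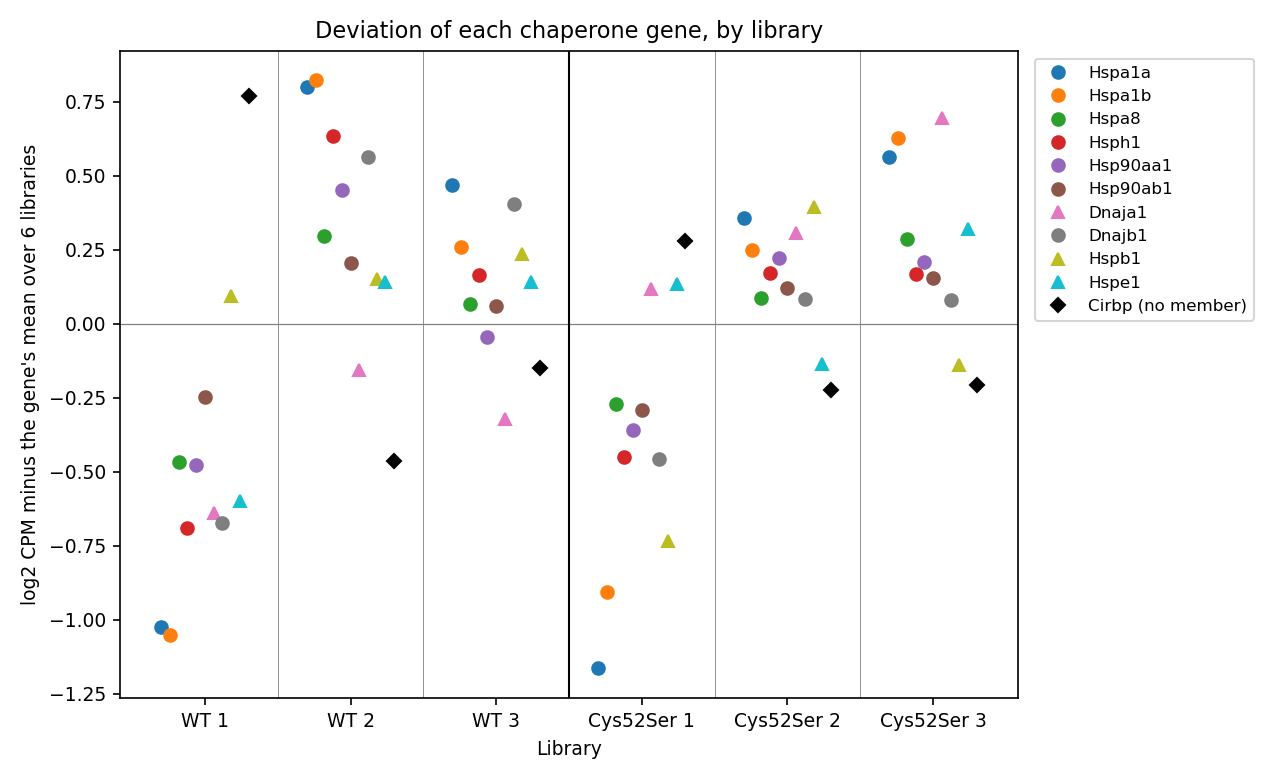
Log2 CPM of each gene minus its own mean over the 6 libraries, 1 column of points per library; circles mark the 7 genes that are lowest in both replicate 1 libraries, triangles the other 3 and diamonds Cirbp. In WT replicate 1 and Cys52Ser replicate 1 the 7 genes lie below 0, down to -1.16 for Hspa1a, and Cirbp lies above 0.

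Similar profiles were sought among 9053 tested genes with a mean of at least 10 CPM, leaving out the members and genes with only a model symbol. Among so many genes, close matches over 6 values can arise without a shared cause. By the root mean square difference of centred log2 CPM over the 6 libraries, Noct (0.20), which encodes a rhythmic phosphatase, was nearest to Hspa1b. The insulin receptor substrate gene Irs2 (0.26), the amino acid transporter gene Slc38a2 (0.27) and the p53-inducible gene Trp53inp1 (0.30) followed. Noct ranged from 25.4 CPM in WT replicate 1 to 141 CPM in WT replicate 2. Nearest to Hsp90aa1 among the same genes, again without the members, were the chromatin remodeller gene Chd1 (0.11), Rasgef1b (0.13), the carbonyl reductase gene Cbr1 (0.14) and Myc (0.14).

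Around the members, most of the chaperone network was not called either, at the same background of 4.98%. The other settings had wider backgrounds, at 14.8% of tested genes for DESeq2 and 23.9% for limma on FPKM. An unadjusted edgeR p under 0.05 was reached by 22.4% of all tested genes. Of 24 other genes of the HSP70 system none passed (edgeR; 5 at an unadjusted p under 0.05; DESeq2 called 1 and limma on FPKM 2), with a median log2 fold change of 0.07. Hspa4, a relative of Hsph1, stood at 131 ± 13.2 CPM in WT and 137 ± 8.38 CPM in mutants, and the HSF1 target Bag3, an exchange factor linked to autophagy, at 44.9 ± 9.33 and 37.2 ± 3.29 CPM (SD over 3 mice; edgeR adjusted p = 0.788 and 0.382). None of 15 subunits and helpers of the TRiC chaperonin and prefoldin passed (edgeR; 1 at an unadjusted p under 0.05; DESeq2 called 0 and limma on FPKM 4), nor did any of 6 tested small heat shock proteins (3 at an unadjusted p under 0.05; DESeq2 and limma on FPKM each called 1). Of 13 mitochondrial chaperones and proteases none passed (edgeR; 4 at an unadjusted p under 0.05; DESeq2 and limma on FPKM each called 1). Their median was 0.30, and Hspd1, the partner of Hspe1, was measured at 276, 405 and 409 CPM in WT and 436, 446 and 497 CPM in mutants. All mutants lay above all WT mice, as in 14.4% of all tested genes (log2 fold change 0.34, edgeR adjusted p = 0.328).

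Among 20 HSP90 co-chaperones DESeq2 called 3 (background 14.8%), edgeR on library totals alone 5 (16.2%) and limma on FPKM 7 (23.9%). In the main edgeR fit 1 rose, beside 2.52% of all tested genes: Fkbp5, an immunophilin of steroid receptor complexes and a glucocorticoid-induced gene. It was measured at 40.5, 38.8 and 67.2 CPM in WT and 248, 238 and 308 CPM in mutants, 5.42-fold higher (edgeR adjusted p = 0.013). All mutants lay far above all WT mice, and without Cys52Ser replicate 1 the adjusted p was 0.0532. Stip1, which joins HSP70 to HSP90, stood at 79.1 ± 14.7 and 90.2 ± 10.4 CPM (SD over 3 mice; edgeR adjusted p = 0.553), and the list's median log2 fold change was -0.06. Of 24 heat shock factors and other HSF1 targets DESeq2 called 4, and edgeR on library totals alone and limma on FPKM 5 each, at those same backgrounds. In the main edgeR fit 1 fell, beside 2.46% of all tested genes. This was the autophagy receptor gene Sqstm1, which fell from 644 ± 45.1 to 356 ± 63.9 CPM (SD over 3 mice; edgeR adjusted p = 0.0383), a call lost without any 1 of the 6 libraries (0.0555 to 0.133). Hsf1 itself was measured at 20.9, 21.9 and 22.2 CPM in WT and 19.6, 18.6 and 19.1 CPM in mutants. All mutants lay below all WT mice, as in 15.2% of all tested genes, and the log2 fold change of -0.18 did not pass (edgeR adjusted p = 0.339). Of 20 alternatives 4 called Hsf1, among them edgeR on library totals alone (log2 fold change -0.53, adjusted p = 0.0296), where the median of all tested genes moved to -0.35.

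The chaperones of the ER gave other values. Of 16 ER chaperones 4 fell and none rose, beside 2.46% lower and 2.52% higher over all tested genes (edgeR). DESeq2 called 8 (background 14.8%) and limma on FPKM 13 (23.9%). The median log2 fold change of the 16 in edgeR was -0.28. Manf fell from 129 ± 14.5 to 69.6 ± 1.88 CPM (SD over 3 mice; edgeR adjusted p = 0.0174), and Dnajb9, Sdf2l1 and Creld2, all targets of the unfolded protein response, had log2 fold changes of -0.99, -0.86 and -0.76 (edgeR adjusted p = 0.0424, 0.0401 and 0.0465). Hspa5, the ER counterpart of Hspa8, was measured at 760, 1003 and 866 CPM in WT and 522, 556 and 591 CPM in mutants. All mutants lay below all WT mice, as in 15.2% of all tested genes, and Hspa5 did not pass (log2 fold change -0.66, edgeR adjusted p = 0.057). That call depended on the setting: 10 of 20 alternatives called Hspa5, among them DESeq2 (adjusted p = 7.3e-05) and edgeR on library totals alone (log2 fold change -1.01, adjusted p = 0.0142), and the adjusted p over all 20 ran from 7.3e-05 to 0.188. The difference between the ER list and the members was not tested. With library totals alone 13 ER chaperones were called. In that setting 16.2% of all tested genes were called (3017, of which 293 higher), and the median of all tested genes moved to -0.35. None of the 16 was called when WT replicate 2 was left out, nor when replicate 1 or 3 of the mutants was; leaving out WT replicate 1 or 3 gave 3 calls, and leaving out mutant replicate 2 gave 2.

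Of 18 temperature and clock genes 4 rose and 2 fell, beside 2.52% higher and 2.46% lower over all tested genes (edgeR). DESeq2 called 9 (background 14.8%) and limma on FPKM 7 (23.9%). In edgeR Cry1 rose 5.43-fold, Hlf 2.98-fold and Per2 2.46-fold, while Nr1d1 and Bhlhe41 fell by 1.80 and 1.25 on the log2 scale. The edgeR adjusted p ran from 0.0107 to 0.0267 for these 5, and Cry2 was the fourth to rise. Of 19 immediate early genes Atf3, Klf6 and Junb fell, by 1.26, 0.61 and 0.82 on the log2 scale (edgeR adjusted p = 0.0169, 0.0467 and 0.05). None rose, and 2.46% of all tested genes were lower. DESeq2 and limma on FPKM called 5 each, at backgrounds of 14.8% and 23.9%. Junb, at the threshold, was lost in 11 of 20 alternatives, among them RLE factors (edgeR adjusted p = 0.0506) and each left-out library. Of these 2 lists, the clock genes had 2 to 5 calls and the immediate early genes 0 or 1 when 1 library was left out.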

How the data were processed

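The authors deposited 1 table that holds, per the file headers, estimated counts and FPKM for every gene in each library. Tools listed in the submitters' processing notes, with no roles stated, include StringTie 1.3.4d, HISAT2 2.0.4, cutadapt 1.9 and UMI-tools, and the build listed there is mm9. Coordinates in the table were instead those of GRCm38: 28524 identifiers were found in GENCODE M21 and 90% of these matched it exactly. For single-transcript genes with 1000 counts or more, 89.9% to 92.4% of deposited counts lay within 1% of FPKM times length times a constant, so they follow coverage estimates; they were whole numbers already. No source used here states a strand setting for counting.

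Counts were fitted with edgeR 4.0.16 in R 4.3.3 (filterByExpr with a minimum count of 10, TMM, robust quasi-likelihood test, genotype as the only term), adjusted over 18648 genes by Benjamini-Hochberg at 0.05. Confidence intervals of 95% used the standard error implied by the F statistic and the test's degrees of freedom. Alternatives were other scalings and filters, DESeq2 1.42.0, limma 3.58.1 on log2(FPKM + a pseudocount of 0.1, 0.5 or 1) with genes of at least 0.5 FPKM in 3 libraries or without that filter, a replicate block and left-out libraries. Groups came from the titles. Total counts of 53318196 to 73900923 per library are sums of the deposited estimates, so they do not by themselves give the counting precision.

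The members and gene lists were chosen with earlier results of these data known. Named genes were the members, Prdx1, 8 fixed genes, up to 5 called genes of smallest p per list and the 4 genes nearest to Hspa1b and to Hsp90aa1. These nearest genes came from those with a mean of at least 10 CPM, without the members and genes with only a model symbol. The ratios were added after the levels were seen.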

Additional observations from a re-analysis of the deposited data

How the results depend on the processing

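The count of called members was 0 in 19 of 20 alternatives and 1 under DESeq2. The count over all genes was 3017 with library totals alone (293 of them higher, against 469 of 928), 2766 with DESeq2, and 3345, 3340 and 3327 in limma on FPKM with pseudocounts of 0.5, 0.1 and 1. Leaving out 1 library gave 28 to 790 calls over all genes (409, 57 and 790 without WT replicates 1, 2 and 3; 31, 504 and 28 without Cys52Ser replicates 1, 2 and 3) and 0 members called. Without replicate 1 of both genotypes, an alternative chosen after seeing the data, 0 of all genes were called, and the log2 fold change turned to Cirbp 0.0297, Hsp90aa1 -0.0628, Hspa8 -0.0533, Hspe1 -0.0895. None of the genes whose sign turned was called in the main setting. With library totals alone the log2 fold changes turned to Hsp90aa1 -0.32, Hspa4 -0.29, Hspa8 -0.29, Hspd1 -0.0042, Hspe1 -0.16, Rbm3 -0.24, Stip1 -0.15. In limma with pseudocounts of 0.5, 0.1 and 1 and in the fit without a filter, the same genes but Hspd1 turned: Hsp90aa1 -0.30, Hspa4 -0.27, Hspa8 -0.28, Hspe1 -0.13, Rbm3 -0.24, Stip1 -0.15 (pseudocount 0.5); Hsp90aa1 -0.30, Hspa4 -0.28, Hspa8 -0.28, Hspe1 -0.14, Rbm3 -0.24, Stip1 -0.15 (0.1); Hsp90aa1 -0.29, Hspa4 -0.27, Hspa8 -0.28, Hspe1 -0.13, Rbm3 -0.23, Stip1 -0.14 (1); and Hsp90aa1 -0.30, Hspa4 -0.27, Hspa8 -0.28, Hspe1 -0.13, Rbm3 -0.24, Stip1 -0.15 (no filter). Upper quartile factors gave Hsp90aa1 -0.0201. Leaving out 1 library moved the sign of Cirbp (-0.46 to 0.22), Hsp90aa1 (-0.23 to 0.24), Hsp90ab1 (-0.18 to 0.12), Hspa1a (-0.61 to 0.19), Hspa1b (-0.50 to 0.32), Hspa4 (-0.0511 to 0.10), Hspa8 (-0.19 to 0.19), Hspe1 (-0.075 to 0.30), Hsph1 (-0.48 to 0.14), Rbm3 (-0.0154 to 0.18), where a range is from the lowest to the highest log2 fold change. Deviations from the group means correlated at -0.039, 0.137 and 0.018 between same-numbered mice and at -0.097 to 0.109 between the others. Such correlations over all genes cannot tell whether the numbers pair the mice. A replicate block gave 729 calls over all genes and 0 members called. For Dnaja1 it gave a log2 fold change of 0.75 (edgeR adjusted p = 0.0585). The causes of these shifts were not tested.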
